A study of Mus musculus with 6 samples.

Results

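Retinoic acid is made from vitamin A inside tissues and acts on gene expression through nuclear receptors. Described here are 9 genes that take up vitamin A (*Stra6*), make retinoic acid (*Rdh10*, *Aldh1a1*, *Aldh1a2*), break it down (*Cyp26a1*, *Cyp26b1*), bind it in the cytoplasm (*Crabp1*) or respond to it as receptors (*Rara*, *Rarg*). They were chosen by gene symbol among the 54532 genes of the deposited expression table, and each symbol matched 1 gene.

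The data were RNA-seq libraries of polyadenylated RNA from whole mouse testes at 5 days postpartum (dpp), from 3 control (Ctrl) and 3 *Srsf1* conditional knockout (cKO) samples. *Srsf1* encodes a serine/arginine-rich RNA-binding protein of pre-mRNA splicing. The cKO mice carried a floxed and a deleted (del) allele of *Srsf1*, written *Vasa*-Cre *Srsf1* Fl/del in the study. Cre recombinase under the promoter of *Vasa* (*Ddx4*), which is active in germ cells, deleted coding exons of the floxed allele. Somatic cells of the testis were not the target of this Cre. A del allele in the genotype of the mouse would be in its somatic cells too, which the study does not address. Cre and floxed alleles of the Ctrl mice were not given in the sources used here, and the labels name no treatment beside the knockout. The comparison asked which of these 9 transcripts differed in level between the testes of these cKO mice and Ctrl testes. Values are FPKM, that is, fragments scaled by the length of the gene and by a factor for each library. That factor was a median-of-ratios factor and not the total of reads. Levels of different genes may be set side by side.

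Vitamin A circulates as retinol and enters cells through the membrane receptor STRA6. RDH10 oxidises retinol to retinal, and the ALDH1A enzymes oxidise retinal to retinoic acid, which the CYP26 enzymes then inactivate. In the testis, retinoic acid drives the differentiation of spermatogonia and induces *Stra8*. ALDH1A1 is known in Sertoli cells, ALDH1A2 in meiotic germ cells of older testes, CRABP1 in spermatogonia, and CYP26B1 in somatic cells, where it protects fetal germ cells from retinoic acid.

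Retinoic acid receptors bind paired copies of a 6-base half-site in the same orientation, and textbook targets such as *Cyp26a1* and *Rarb* carry such a repeat close to the start of transcription. Promoter windows from RefSeq (build GRCm38.p6) were searched on both strands for a pair of the half-site AGGTCA or its variants (AGTTCA, then GGGTCA, then GGTTCA) separated by 1, 2 or 5 bases. Each window held 250 bases before and 50 bases after an annotated start. The table held 8 of the 9 genes, with 16 windows, and *Rdh10* had no entry. *Cyp26a1* was the only one of the 8 with a match, at a spacing of 5 bases and on the reverse strand, 32 to 16 bases before its start. Of the 42 other retinoid pathway genes listed here, 30 were in the table, and *Rarb* and *Bco1* had a match, at spacings of 5 bases (53 to 37 bases before the RefSeq start) and 1 base (56 to 44 bases before it). Among all 27025 genes with windows, 0.115% held a repeat at a spacing of 5 bases, 0.311% at 2 bases and 0.263% at 1 base. The 3 matches are shown with the half-sites in capitals because they are the only such letters in the windows of the 2 lists. The strand shown is that of the gene, at chr19:37697770-37697799 (plus strand) for *Cyp26a1*, chr14:16575506-16575535 (minus strand) for *Rarb* and chr8:117095803-117095832 (plus strand) for *Bco1*.
Cyp26a1: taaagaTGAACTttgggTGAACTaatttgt
Rarb: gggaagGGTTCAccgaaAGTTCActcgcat
Bco1: gggaacTGACCTtTGACCTaacacacacac
A match is a description of the letters and shows neither binding nor control.

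The tissue label was checked first. Germ-cell, Sertoli-cell and Leydig-cell markers were present in every library, whereas 6 retina markers, looked at because the extraction text of the labels speaks of retinas, summed to between 0.220 and 0.746 FPKM with *Crx* and *Nrl* listed at 0 in all libraries. *Srsf1* itself was lower in the cKO group (47.7 ± 3.48 FPKM) than in the Ctrl group (86.6 ± 3.85 FPKM, SD, n = 3), with a log2 difference of -0.85 (adjusted p = 0.058, limma). Reads recovered from the FPKM summed to between 15448191 and 18964743 per library. Among the Ctrl libraries, Ctrl 2 stood apart, since its 12 germ-cell markers summed to 380.8 FPKM against 158.8 and 173.4 FPKM in Ctrl 1 and Ctrl 3. The marker sum was 44.2, 82.0 and 53.1 FPKM in cKO 1, 2 and 3. Because whole testes were sequenced, fewer cells of a type and less RNA per cell cannot be told apart.

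In Ctrl testes, *Aldh1a1* was by far the most abundant of the 9 transcripts, at 315.3 ± 21.2 FPKM (SD, n = 3), and its mean over all libraries was at percentile 99.3 of the 16206 genes tested. *Cyp26b1*, *Crabp1*, *Rara* and *Aldh1a2* followed with means of 33.8, 23.8, 23.0 and 18.5 FPKM, and the ranges of neighbours in this order overlapped. Below them came *Stra6* (10.7 FPKM), *Rdh10* (7.11 FPKM), *Rarg* (3.80 FPKM) and *Cyp26a1* (1.27 FPKM), with no overlap between neighbours. In cKO testes, *Aldh1a1* again led with 332.8 ± 35.6 FPKM and *Cyp26a1* was again last with 0.727 ± 0.580 FPKM. The main change of place was that of *Crabp1*, which held rank 3 of 9 in Ctrl and rank 8 in cKO, where its range overlapped that of *Rarg*. *Aldh1a2*, *Stra6* and *Rdh10* had neighbouring ranges that overlapped in cKO but not in Ctrl.

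**Figure D1:**
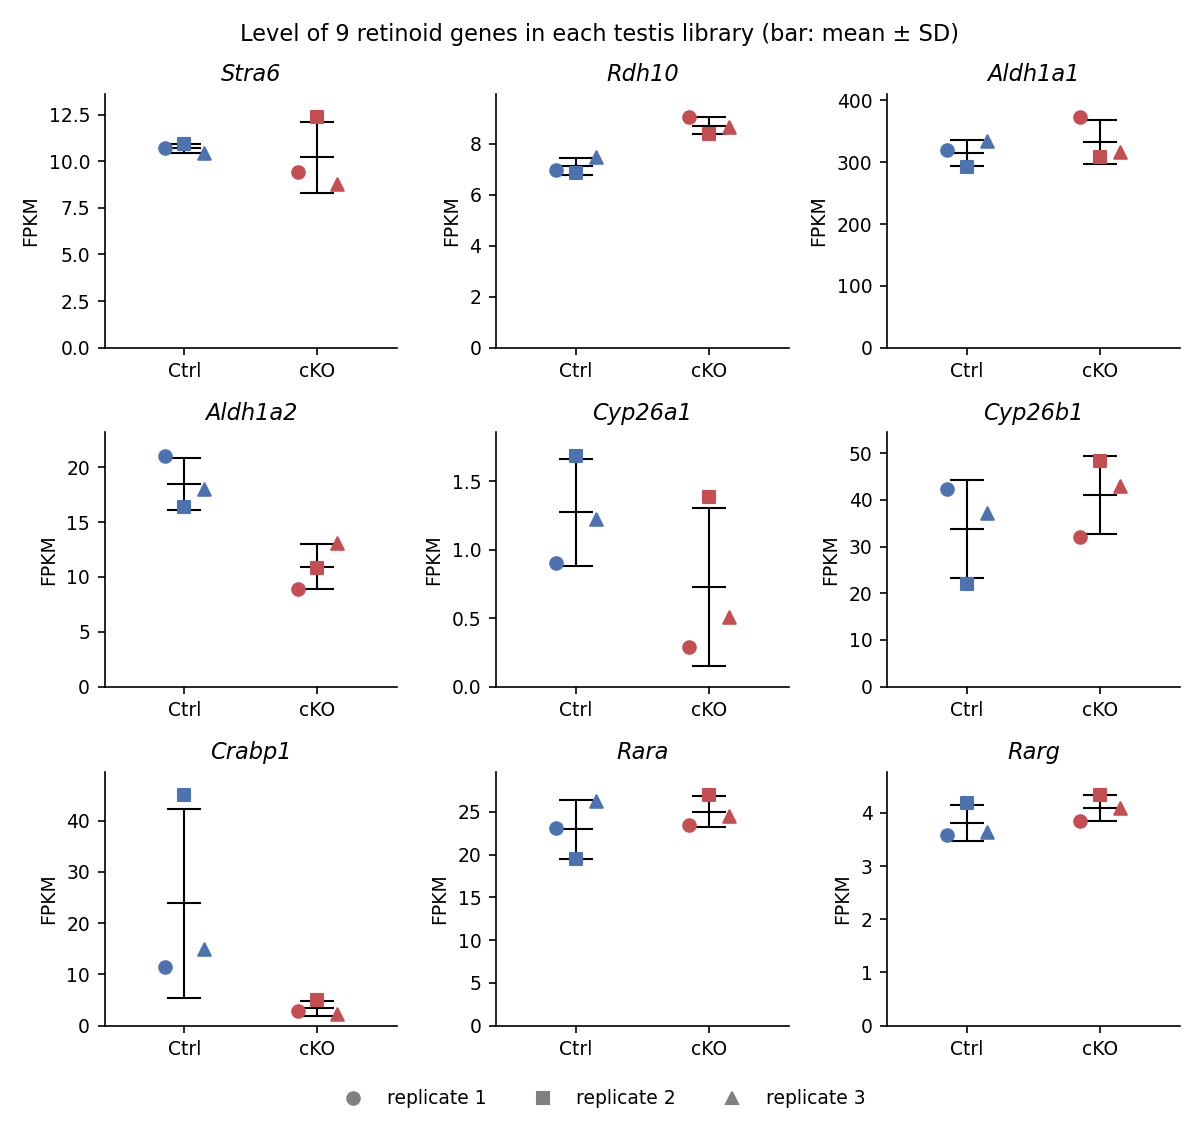
FPKM of each of the 9 genes in the 3 Ctrl (blue) and 3 cKO (red) libraries, on a linear axis from 0 in each panel. Marker shape gives the replicate number, and bars give the mean ± SD. *Crabp1* and *Aldh1a2* sit lower and *Rdh10* sits higher in all cKO libraries than in any Ctrl library, and the groups overlap for the other 6 genes.

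Across the 9 genes, the largest differences on the log2(FPKM + 1) scale were the lower levels of *Crabp1*, at 14.1% of the Ctrl mean in cKO, and of *Aldh1a2*, at 59.3%, while *Rdh10* was at 122.3%. *Cyp26a1*, at 57.2%, had few reads and overlapping groups. None of the 9 passed the test over all genes (limma on log2(FPKM + 1), Benjamini-Hochberg adjusted p of 0.05 or less), nor did any of the 16206 genes tested (0.0%), of which 2577 had an unadjusted p under 0.05. All 9 were tested. By the limma voom test on recovered reads, 83 genes (0.512%) passed and again none of the 9. The study itself used DESeq2 on read counts and called genes in both directions at an adjusted p of 0.05 or less. It reported *Stra8* as reduced in cKO, both in the RNA-seq and by RT-qPCR, a second measurement of transcript level. The groups did not overlap for 2 genes that were lower in cKO (*Crabp1* and *Aldh1a2*) and 1 that was higher (*Rdh10*), against 12.8% and 10.3% of all genes tested. These 3 had an unadjusted p under 0.05, the 2 lower ones against 9.31% of all genes, the higher one against 6.6%, and the 3 together against 15.9%. The median log2 difference of the 9 genes was 0.07, beside 0.0027 over all genes tested.

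**Figure D2:**
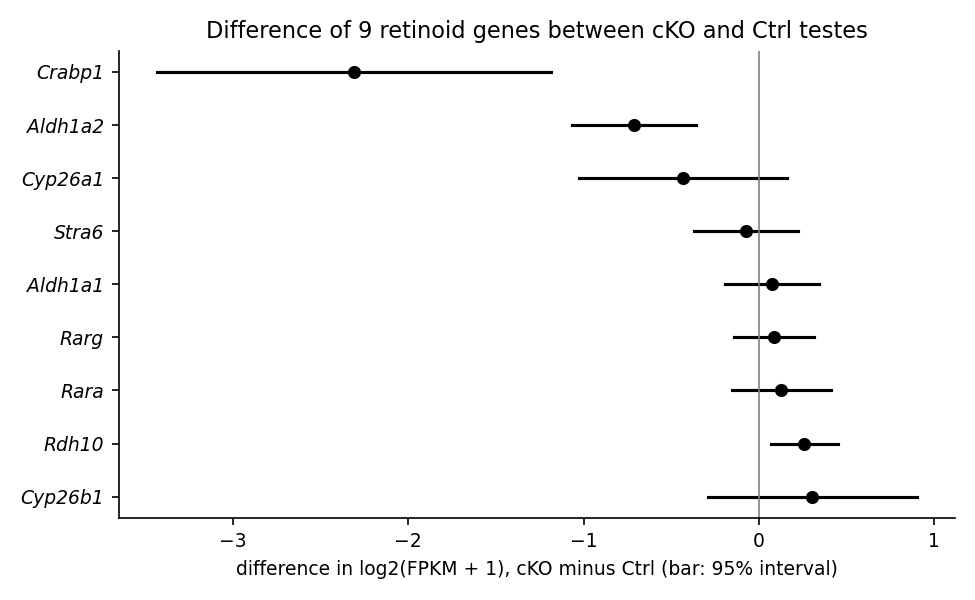
Difference in log2(FPKM + 1) between cKO and Ctrl for the 9 genes, with the 95% interval from limma (n = 3 per group). The interval lies below 0 for *Crabp1* and *Aldh1a2*, above 0 for *Rdh10*, and includes 0 for the other 6, and none of the 9 passed the adjusted threshold.

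*Stra6* (ENSMUSG00000032327, chromosome 9, 58063788 to 58153996 of GRCm38, plus strand), the retinol uptake receptor, had 10.7, 10.9 and 10.4 FPKM in Ctrl 1, 2 and 3 and 9.43, 12.4 and 8.77 FPKM in cKO 1, 2 and 3. The cKO libraries spread around the narrow Ctrl range, 1 above it and 2 below. The log2 difference was -0.08 with a 95% interval from -0.37 to 0.22 (adjusted p = 0.807, limma).

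*Rdh10* (ENSMUSG00000025921, chromosome 1, 16105774 to 16133734, plus strand), the dehydrogenase of the first oxidation step, had 6.98, 6.87 and 7.49 FPKM in Ctrl and 9.06, 8.39 and 8.65 FPKM in cKO. Every cKO value was above every Ctrl value, and the spread within each group was small (SD of 0.333 and 0.337 FPKM, n = 3). The log2 difference was 0.26 (95% interval from 0.07 to 0.45), with an adjusted p of 0.213 in limma. Without Ctrl 2 it was 0.24 (adjusted p = 0.404, limma). The counts behind these values were 470 to 593 reads per library.

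*Aldh1a1* (ENSMUSG00000053279, chromosome 19, 20492715 to 20643462, plus strand) encodes a retinal dehydrogenase and had by far the highest transcript level of the retinal dehydrogenase genes listed here. It had 319.5, 292.3 and 334.0 FPKM in Ctrl and 373.7, 308.9 and 316.0 FPKM in cKO. The groups overlapped, cKO 1 was the highest library, and the log2 difference was 0.07 with a 95% interval from -0.19 to 0.34 (adjusted p = 0.784, limma). The sign of this difference turned to -0.02 with quantile normalization and to -0.01 without cKO 1, so no direction could be given. With 24084 to 29012 reads per library, counting error was small. Of the 50-base stretches of its transcripts, 3.06% also occurred in its neighbour and near copy *Aldh1a7*, which was listed at 9.14 ± 2.72 FPKM in the Ctrl group and 7.12 ± 0.5003 FPKM in the cKO group (SD, n = 3).

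*Aldh1a2* (ENSMUSG00000013584, chromosome 9, 71215789 to 71296243, plus strand), a second retinal dehydrogenase, had 21.1, 16.4 and 18.03 FPKM in Ctrl 1, 2 and 3 and 8.93, 10.8 and 13.1 FPKM in cKO 1, 2 and 3. All 3 cKO values were below the lowest Ctrl value, which was that of Ctrl 2. The log2 difference was -0.71 (95% interval from -1.06 to -0.36), with an adjusted p of 0.116 in limma. It ranged from -0.85 to -0.59 over 16 alternative settings, with adjusted p from 0.0504 to 0.325, and passed the threshold in none of them. Without Ctrl 2 it was -0.79 (adjusted p = 0.169, limma).

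Within the summed FPKM of *Aldh1a1*, *Aldh1a2* and *Aldh1a3*, another retinal dehydrogenase gene, the balance moved by a few percentage points. *Aldh1a2* made up 5.48% ± 0.563 of the sum in Ctrl and 3.20% ± 0.824 in cKO (SD, n = 3), with no overlap between groups. *Aldh1a1* made up 93.5% ± 0.598 in Ctrl and 95.9% ± 0.942 in cKO, also with no overlap. *Aldh1a7* was not part of the sum. These shares are of the same libraries as the levels above and were not tested separately.

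*Cyp26b1* (ENSMUSG00000063415, chromosome 6, 84571414 to 84593908, minus strand), the retinoic acid hydroxylase gene with the most transcript here, had 42.3, 22.1 and 37.1 FPKM in Ctrl and 32.0, 48.4 and 43.0 FPKM in cKO. The groups overlapped, and the lowest value was that of Ctrl 2. The log2 difference was 0.31 with a 95% interval from -0.29 to 0.90 (adjusted p = 0.585, limma), and it fell to 0.03 without Ctrl 2.

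*Cyp26a1* (ENSMUSG00000024987, chromosome 19, 37697808 to 37701528, plus strand), the hydroxylase gene with the repeat shown above, was close to the lower limit of the data. It had 0.906, 1.69 and 1.22 FPKM in Ctrl and 0.287, 1.38 and 0.511 FPKM in cKO, from 8 to 57 reads per library. The groups overlapped through cKO 2, and the log2 difference was -0.43 with a 95% interval from -1.02 to 0.16 (adjusted p = 0.448, limma). It was -0.92 at a pseudocount of 0.1 and -1.04 with voom on recovered reads. Of the summed FPKM of *Cyp26a1*, *Cyp26b1* and *Cyp26c1*, *Cyp26b1* made up 95.5% ± 3.13 in Ctrl and 98.2% ± 1.09 in cKO (SD, n = 3), and the groups overlapped.

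*Crabp1* (ENSMUSG00000032291, chromosome 9, 54764748 to 54773110, plus strand), which encodes a cytoplasmic retinoic acid-binding protein, had 11.5, 45.1 and 14.96 FPKM in Ctrl 1, 2 and 3 and 2.85, 5.00 and 2.26 FPKM in cKO 1, 2 and 3. All cKO values were below all Ctrl values, and Ctrl 2 was far above the other Ctrl libraries. The Ctrl mean was 7.07 times the cKO mean, and the log2 difference was -2.31 (95% interval from -3.43 to -1.18), with an adjusted p of 0.112 in limma. Without Ctrl 2 the difference was -1.74 (adjusted p = 0.107, limma). Among the 13204 protein-coding genes alone, where 1.33% of genes were called lower, *Crabp1* passed with an adjusted p of 0.044, and its adjusted p ranged from 0.040 to 0.329 over the 16 alternatives. Reads numbered 149 to 688 per library in Ctrl and 28 to 67 in cKO.

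Both receptor genes had overlapping groups. *Rara* (ENSMUSG00000037992, chromosome 11, 98927818 to 98974942, plus strand), the receptor known in Sertoli cells, had 23.1, 19.4 and 26.3 FPKM in Ctrl and 23.5, 27.0 and 24.6 FPKM in cKO. The log2 difference was 0.13 with a 95% interval from -0.16 to 0.41 (adjusted p = 0.635, limma). *Rarg* (ENSMUSG00000001288, chromosome 15, 102234938 to 102257517, minus strand), the receptor known in spermatogonia, had 3.58, 4.19 and 3.64 FPKM in Ctrl and 3.85, 4.34 and 4.10 FPKM in cKO. The log2 difference was 0.09 with a 95% interval from -0.14 to 0.32 (adjusted p = 0.695, limma). *Rarb*, the remaining retinoic acid receptor, reached at most 0.176 FPKM and 17 reads in any library and was not tested. *Rara* made up 85.1% ± 3.07 of the summed FPKM of the 3 receptors in Ctrl and 85.7% ± 0.323 in cKO (SD, n = 3).

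The levels of the 9 genes were then set beside markers of the cell types of the testis. Of 12 germ-cell markers, 11 were lower in cKO with no overlap between groups, *Utf1* being the exception, and their cKO means ranged from 7.44% to 127.5% of Ctrl with a median of 27.4%. *Crabp1*, at 14.1%, was below 11 of the 12 markers. *Aldh1a2*, at 59.3%, was above 11 of the 12.

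Library by library, *Crabp1* was highest where the germ-cell markers were highest, in both groups. As a percentage of the Ctrl mean, the summed markers of Ctrl 1, 2 and 3 were at 66.8, 160.2 and 72.9, and those of cKO 1, 2 and 3 were at 18.6, 34.5 and 22.3. *Crabp1* was at 48.2, 189.1 and 62.8 in Ctrl and at 12.0, 21.0 and 9.48 in cKO. Ctrl 2 was the highest library and cKO 2 the highest cKO library for both, while cKO 1 and cKO 3 stood in opposite order. This was not particular to *Crabp1*. *Cyp26a1* (71.2, 132.7 and 96.2 in Ctrl, 22.5, 108.8 and 40.2 in cKO) kept the marker order within each group. So did *Rarg* (94.2, 110.2 and 95.6 in Ctrl, 101.2, 114.2 and 107.9 in cKO). *Stra6* was also highest in Ctrl 2 and cKO 2 within the groups. *Aldh1a2* did not share the marker order, at 114.0, 88.5 and 97.5 in the Ctrl libraries and at 48.3, 58.7 and 70.8 in cKO. Ctrl 2 was its lowest Ctrl library, as it was for *Rdh10*, *Aldh1a1*, *Cyp26b1* and *Rara*. Relative to the mean log2 level of the 12 markers in the same library, *Crabp1* was at 0.49, 1.30 and 0.87 in the Ctrl libraries and at 0.01, 0.07 and -0.34 in cKO, which was lower in cKO with no overlap. *Aldh1a2* overlapped between groups on this scale. The marker mean weighs all 12 markers alike, and log2(FPKM + 1) compresses the fall of the low ones. The log2 differences of the 12 ran from -2.25 (*Dazl*) to 0.37 (*Utf1*) with a median of -1.43, beside -2.31 for *Crabp1*. The part of germ-cell content in the *Crabp1* and *Aldh1a2* differences was not tested.

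**Figure D3:**
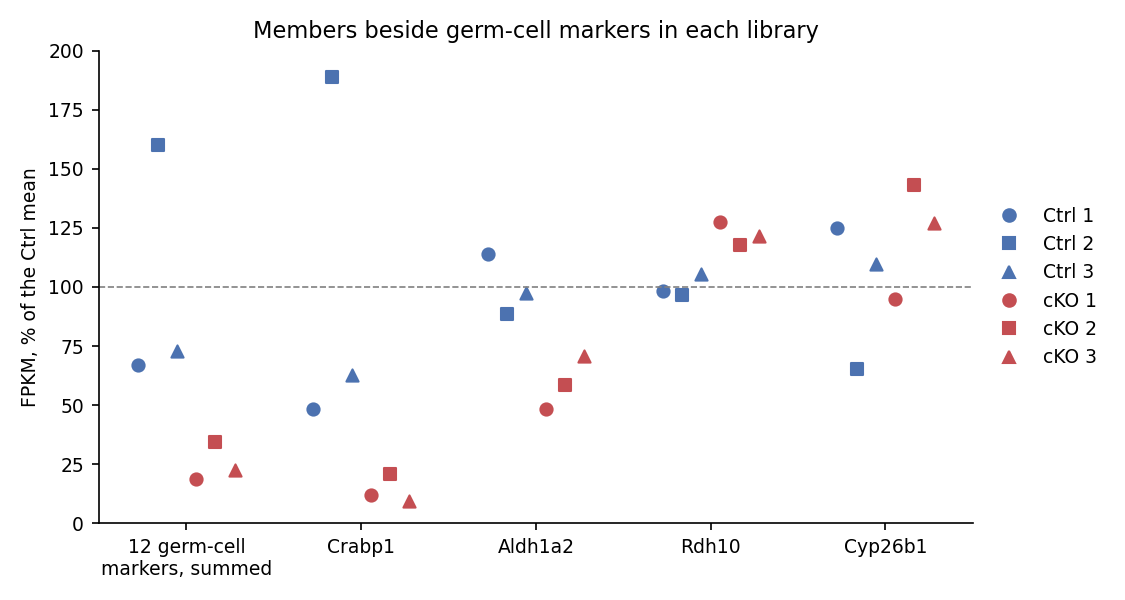
FPKM as a percentage of the Ctrl mean in each of the 6 libraries, for the sum of 12 germ-cell markers and for *Crabp1*, *Aldh1a2*, *Rdh10* and *Cyp26b1*, with the dashed line at 100. Ctrl 2 is the highest library for the markers (160.2) and *Crabp1* (189.1) but the lowest Ctrl library for *Aldh1a2* (88.5), *Rdh10* (96.6) and *Cyp26b1* (65.2).

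Sums of somatic markers were mixed in direction. The 10 Sertoli-cell markers summed to between 1902 and 2538 FPKM in Ctrl and between 2037 and 2443 FPKM in cKO, which overlapped, but single markers went both ways. Without overlap between groups, 4 of the 10 were lower in cKO (*Cldn11* at 49.5% of the Ctrl mean, *Aard* at 75.4%, *Rhox8* at 79.5% and *Kitl* at 84.8%) and 1 was higher (*Amh*, at 164.3%). The 6 Leydig-cell markers summed to 362.6 to 543.9 FPKM in Ctrl and 585.6 to 681.6 FPKM in cKO. The 6 endothelial markers summed to 40.5 to 51.8 and 54.1 to 60.4 FPKM. Both sums were higher in cKO with no overlap. The largest part of each came from a gene whose groups overlapped, *Hsd3b1* (a mean of 223.1 FPKM in Ctrl) and *Cdh5* (29.3 FPKM). Taken singly, 3 of the 6 Leydig-cell markers and 1 of the 6 endothelial markers were higher without overlap. Of all genes tested, 10.3% were higher and 12.8% lower without overlap. The 6 peritubular myoid markers summed to 520.7 to 532.6 FPKM in Ctrl and 327.7 to 510.7 FPKM in cKO, lower with no overlap. Most of this sum was *Acta2* (a mean of 455.9 FPKM in Ctrl), and of the single markers *Myh11* and *Acta2* were lower without overlap, *Des* was higher without overlap (132.6% of Ctrl) and the other 3 overlapped. The sums of 5 interstitial stroma markers (556.4 to 621.0 FPKM in Ctrl and 592.0 to 824.2 FPKM in cKO) and of 6 macrophage markers (49.9 to 66.2 and 57.6 to 68.6 FPKM) overlapped. The 3 surface epithelium markers (6.12 to 15.1 FPKM in Ctrl and 3.58 to 15.9 FPKM in cKO) and the 5 rete testis and epididymis markers (2.71 to 7.67 and 2.73 to 10.6 FPKM) overlapped between groups. Sums of 4 adrenal cortex markers were low, at 3.59 to 4.36 FPKM in Ctrl and 2.46 to 2.88 FPKM in cKO, with no overlap. Whether any of these cell types had a part in the differences of *Rdh10* or *Aldh1a2* was not tested.

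The genes whose values lay nearest to those of the 3 non-overlapping genes over the 6 samples were listed by the Euclidean distance between centred log2(FPKM + 1) values, among 12095 protein-coding genes whose mean reached 1 FPKM. For *Crabp1* they were *Sohlh1*, a transcription factor gene of spermatogonia (distance 0.5003), *Sox3*, another such gene (0.602), and *Mageb4* (0.626). *Sohlh1*, for example, had 10.2, 37.0 and 10.3 FPKM in Ctrl and 2.76, 3.72 and 2.56 FPKM in cKO. Its high Ctrl 2, shared with *Crabp1*, is part of what the choice by distance selects for. For *Aldh1a2* the nearest were *Glb1l3* (0.160), *Chrna4* (0.250) and *Mapk12* (0.261), and *Glb1l3* had 18.7, 13.6 and 15.4 FPKM in Ctrl and 8.06, 9.88 and 10.4 FPKM in cKO. For *Rdh10* they were *Chd9* (0.083), *Ghr*, the growth hormone receptor gene (0.084), and *Camk1* (0.085). Distances were smaller where the gene itself varied less, so they compare genes within 1 list and not between lists.

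A list of 42 other retinoid pathway genes was read from the same fit. Of these, 26 were tested, and 16 stayed under the mean of 0.5 FPKM, with at most 0.665 FPKM in any library (*Lrat*, which encodes the enzyme that esterifies retinol for storage) and *Ttr* listed at 0 throughout. None of the 26 passed the test. The groups did not overlap for 4 that were lower and 2 that were higher in cKO, beside the same shares of all genes given above (12.8% and 10.3%), and 13 had a negative and 13 a positive difference. Their median log2 difference was 0.0026, beside 0.0027 over all genes tested.

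Of the genes for transport, *Rbp4*, the plasma carrier of retinol, had 3.52, 5.83 and 4.65 FPKM in Ctrl and 1.37, 3.05 and 2.45 FPKM in cKO, lower with no overlap (log2 difference -0.80, adjusted p = 0.189, limma). Among the oxidoreductases, *Rdh14* had 18.2, 18.9 and 18.9 FPKM in Ctrl and 21.7, 19.5 and 19.2 FPKM in cKO, higher by a narrow margin (0.10, adjusted p = 0.569, limma). *Adh1*, an alcohol dehydrogenase gene and the most abundant of that class, differed by 0.22 with overlap (adjusted p = 0.604, limma). *Aldh1a3* differed by -0.05 and the binding protein gene *Fabp5* by -0.01, and the sign of both turned in some settings. *Crabp2*, the close relative of *Crabp1*, averaged 0.836 ± 0.506 FPKM in the Ctrl group and 1.31 ± 0.671 FPKM in the cKO group with overlap, and it was picked out after its values were seen.

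Retinoic acid receptors act as pairs with retinoid X receptors. *Rxra* had 14.0, 14.3 and 14.3 FPKM in Ctrl and 14.9, 17.2 and 16.6 FPKM in cKO, higher with no overlap (0.18, adjusted p = 0.346, limma). *Rxrb* averaged 17.1 ± 1.33 FPKM in the Ctrl group and 17.2 ± 1.88 FPKM in cKO (SD, n = 3). The coactivator gene *Ncoa3* had 5.93, 6.17 and 5.35 FPKM in Ctrl and 4.63, 5.21 and 4.39 FPKM in cKO, lower with no overlap (-0.25, adjusted p = 0.293, limma).

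Of 8 genes listed as responsive to retinoic acid, 5 were tested, and all 5 had a negative difference, beside 8026 of all 16206 genes tested. *Stra8*, which germ cells switch on in response to retinoic acid, had 10.1, 55.8 and 12.8 FPKM in Ctrl 1, 2 and 3 and 0.388, 2.82 and 2.33 FPKM in cKO 1, 2 and 3. The cKO values were all below the Ctrl values, Ctrl 2 was the highest library as it was for *Crabp1*, and the log2 difference was -2.98 (95% interval from -4.51 to -1.45, adjusted p = 0.124, limma). Without Ctrl 2 it was -2.25 (adjusted p = 0.148, limma). *Rec8*, a meiotic cohesin gene, had 1.62, 2.74 and 1.01 FPKM in Ctrl and 0.476, 0.265 and 0.485 FPKM in cKO, lower with no overlap (-0.94, adjusted p = 0.151, limma). At this low level the size depended on the scale, with -1.82 at a pseudocount of 0.1 and -2.07 with voom on recovered reads. *Kit*, *Tgm2* and *Gm4969* (*Bhmg1*) had differences of -0.28, -0.09 and -0.06 with overlapping groups. *Stra8*, *Rec8* and *Kit* are also known as genes of germ cells, so their values stand beside the germ-cell marker sums above, and the part of germ-cell content in them was not tested.

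**Figure D4:**
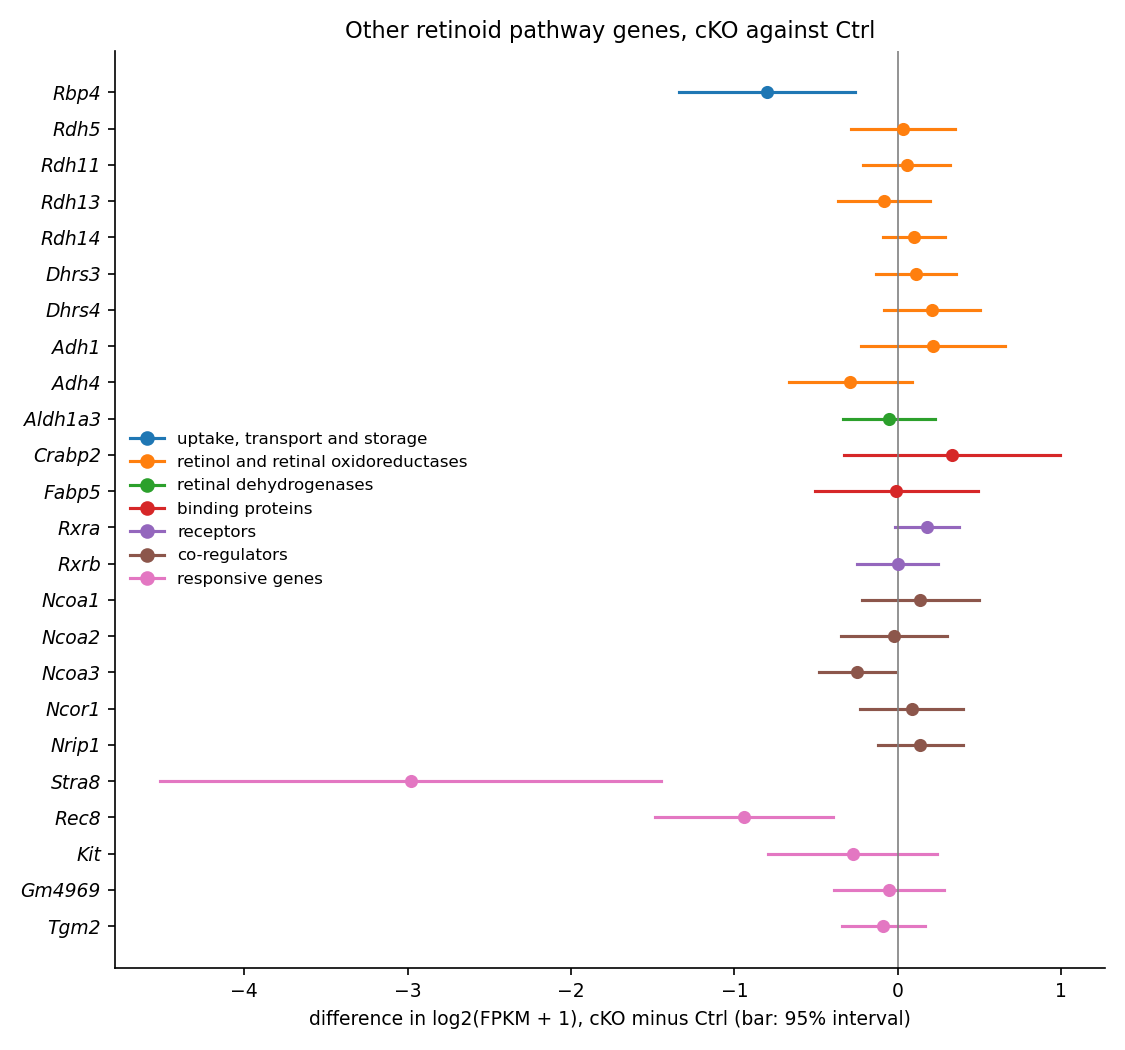
Difference in log2(FPKM + 1) between cKO and Ctrl for 24 of the 26 tested genes of the wider retinoid pathway, coloured by class, with the 95% interval from limma (n = 3 per group). *Stra8* (-2.98), *Rec8* (-0.94) and *Rbp4* (-0.80) lie farthest from 0, and of the other intervals shown only that of *Ncoa3* excludes 0.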

How the data were processed

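RNA-seq was performed on polyadenylated RNA of 5 dpp testes, 3 Ctrl and 3 cKO, grouped by the genotype label. The authors aligned paired-end reads with HISAT2 2.0.5 to mm10, counted reads per gene and deposited 1 table of FPKM values with gene lengths and GRCm38 coordinates. The annotation release and the use of strand are not given in the sources used here. The deposited scaling between libraries equalled median-of-ratios factors. FPKM times gene length gave whole reads for 100% of the values under 10000 reads (within 0.01 read). For a gene 1 kb long, 3 reads correspond to 0.158 to 0.194 FPKM, depending on the library. This limit covers counting error only. Replicates differed by more than sampling noise. The labels give a number to each sample, and the study calls the replicates biological.

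The 16206 genes whose mean reached 0.5 FPKM were tested on log2(FPKM + 1) by limma (version 3.58.1, under R 4.3.3), with a mean-variance trend and no block, two-sided, with Benjamini-Hochberg adjustment at 0.05. This scale understates the change of low genes. The members and lists were chosen with earlier results of these data known. Named were all 9 members, the pathway genes called or not overlapping between groups, the most abundant gene of each pathway class, and the 3 nearest genes of each non-overlapping member. Some genes that this rule names are not reported here. Symbols were matched exactly, and *Bhmg1* through its RefSeq synonym.

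On simulated reads for this comparison (16206 genes, 200 changed by 2 on the log2 scale), limma on log2 FPKM recovered 85.5% of changed genes. Of its 187 calls, 8.56% were false. There, limma voom recovered 94.0%, with 5.05% of 198 calls false. On the deposited values, limma on log2(FPKM + 1) called no gene, and *Crabp1* (-2.31) and *Stra8* (-2.98) were among those not called. Whether the recovery on simulated reads holds for the deposited libraries was not tested. The 16 alternatives were a pseudocount of 0.1, a minimum mean of 1 FPKM, no filter, protein-coding genes only, TPM, quantile normalization, no trend, the replicate block, voom on recovered reads, array weights and leaving out each of the 6 libraries.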

Additional observations from a re-analysis of the deposited data

How the results depend on the processing

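The main test called no gene, and the number of calls depended on the setting. Genes lower and higher in cKO numbered 176 and 37 among protein-coding genes only, 61 and 22 with limma voom on recovered reads, 55 and 13 with array weights, 1 and 4 with TPM, and 0 and 1 without the mean-variance trend. Leaving out 1 library gave 0 to 15 lower and 0 to 3 higher genes, with 15 and 3 without Ctrl 2 and 2 and 3 without Ctrl 3. With a pseudocount of 0.1, a minimum mean of 1 FPKM, no filter or quantile normalization, both numbers were 0. Of the 9 retinoid genes, 1 was called among protein-coding genes (*Crabp1*) and none with voom, array weights, TPM or any library left out. Of the other pathway genes, 1 was called among protein-coding genes (*Stra8*, adjusted p = 0.050, limma, just under the threshold). The cause of these differences in counts was not tested.

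The replicate block gave 84 lower and 14 higher calls, and under it 1 of the 9 retinoid genes (*Crabp1*, adjusted p = 0.040, limma) and 1 other pathway gene (*Stra8*, 0.050) were called. Same-numbered samples deviated together only weakly (correlations of 0.066, 0.016 and 0.088), so the numbers were not taken to pair the samples.

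*Crabp1* ranged from -2.68 to -1.74, *Aldh1a2* from -0.85 to -0.59 and *Rdh10* from 0.23 to 0.29 on the log2 scale, each in 1 direction under all 16 alternatives. Small differences changed sign. *Aldh1a1* was at -0.018 with quantile normalization, *Fabp5* at 0.013 with quantile normalization and 0.0021 with voom, and *Rxrb* at 0.023 with quantile normalization and 0.030 with array weights. With 1 library left out, *Stra6* ranged from -0.21 to 0.016, *Aldh1a1* from -0.011 to 0.13, *Aldh1a3* from -0.16 to 0.0094, *Fabp5* from -0.24 to 0.220 and *Rxrb* from -0.076 to 0.074. Depth limits *Cyp26a1* (8 to 57 reads) most among the 9 genes.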
